A study of Mus musculus with 2 samples.

Results

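The Pax family, Pax1 to Pax9, was read on 23 probes of a mouse microarray with 56589 usable probes, as 9 of 32942 gene names; the members are the non-control probes that the array design names for these 9 genes, and 7 of the 9 have several probes. Total RNA came from 46C mouse embryonic stem cells (known for a GFP reporter placed in the Sox1 gene) at day 5 of neural differentiation as floating aggregates in a medium with serum replacement. There were 2 groups with 1 one-colour array each, cells labelled WT and cells labelled KO-Linc1548, a knockout of a long intergenic non-coding RNA; both are 46C cells and share the GFP reporter. The labels do not say how the knockout was made or whether it is 1 clone. With 1 array per group differences carry no replicate check and no test; the number of arrays limits the precision.

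Pax genes encode transcription factors that bind DNA through a paired domain. They fall into groups by what else they carry: Pax3 and Pax7 have a full homeodomain and a short repressor motif called the octapeptide, Pax4 and Pax6 a homeodomain without the octapeptide, Pax2, Pax5 and Pax8 the octapeptide with a partial homeodomain, and Pax1 and Pax9 the octapeptide without a homeodomain. In the embryonic nervous system Pax6 marks forebrain, eye and ventral spinal cord progenitors, Pax3 and Pax7 the dorsal neural tube and neural crest, and Pax2, Pax5 and Pax8 the midbrain-hindbrain boundary, whereas Pax1 and Pax9 belong to the sclerotome and pharyngeal pouches and Pax4 to the endocrine pancreas.

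Pax6 has 6 probes, and a pair of them lies at the junction where its main splice forms differ, so their sequences are shown first. The paired domain of Pax6 can be interrupted by a small alternative exon, known as exon 5a, which changes its DNA binding. Both probes cross an exon junction and share a run of 10 bases from the exon before it; capitals mark what follows that run. In the first the capitals hold exon 5a, and in the second the next paired-domain exon, joined without exon 5a. The third sequence, with no capitals, is the junction probe in the transactivation domain, which both splice forms share. The fourth is a Pax5 probe, in which capitals mark the codons of the octapeptide. Positions are on mouse build mm9, as the files give them, at chr2:105524098-105524949, chr2:105524106-105525093 and chr2:105535591-105536463 (plus strand) and chr4:44692322-44692381 (minus strand).
Pax6 A_52_P469306: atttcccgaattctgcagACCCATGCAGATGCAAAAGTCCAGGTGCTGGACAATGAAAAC
Pax6 A_55_P2719489: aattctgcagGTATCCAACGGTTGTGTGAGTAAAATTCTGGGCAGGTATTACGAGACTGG
Pax6 A_52_P565559: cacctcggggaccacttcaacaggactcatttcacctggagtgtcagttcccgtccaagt
Pax5 A_66_P128859: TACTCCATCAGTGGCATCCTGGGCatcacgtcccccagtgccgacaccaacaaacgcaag

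Of the Pax genes read on both arrays, Pax3, Pax6 and Pax7 were lower on the KO array and Pax8 was higher. Pax2 lay on the 2-fold limit and Pax5 had no settled direction. The scanner software called 13 of the 23 Pax probes well above background on the WT array and 8 on the KO array. All 8 were above background on both arrays, 5 were above it on the WT array alone, 0 on the KO array alone and 10 on neither. Over all probes of the array, 55.7% were well above background on both arrays, 5.68% on the WT array alone, 2.82% on the KO array alone and 35.8% on neither. Of the 8 Pax probes so measured, 6 read lower on the KO array by 2-fold or more, 1 read higher by as much and 1 lay within 2-fold. Among 31536 probes measured on both arrays, 8.44% were lower by that much and 10.5% higher. Among the 10112 with a geometric mean signal under 200, the shares were 9.21% and 14.2%. The median log2 difference, knockout minus wild type, was −1.53 for the 8 Pax probes and 0.09 for all measured probes. By gene, taking the median of a gene's measured probes, 4 of 6 measured Pax genes passed the 2-fold limit downward and 1 upward, against 8.81% and 11.5% of 18671 genes. With normexp background correction 4 of the 8 probes and 3 of the 6 genes were lower by 2-fold or more. The shares over all probes and genes were taken without that correction.

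Signals below are the processed intensities as deposited, each with the software's error (1 SD) for that spot. Non-control probes were dimmer on the KO array, with a 75th percentile of 652 against 864. The 8 spike-in probes differed by a log2 value of only −0.02 before centring. Every log2 difference and fold was taken after centring both arrays on that percentile, which adds 0.40 to a log2 difference of raw signals. Spike-in centring would instead shift every log2 difference by −0.39, making the lower values larger in size and Pax8 smaller. Each Pax probe is printed in 1 spot, and the error of a difference combines both spot errors; it says nothing of the spread between cultures. In this bulk RNA, fewer cells of a type and less RNA per cell cannot be told apart.

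**Figure D1:**
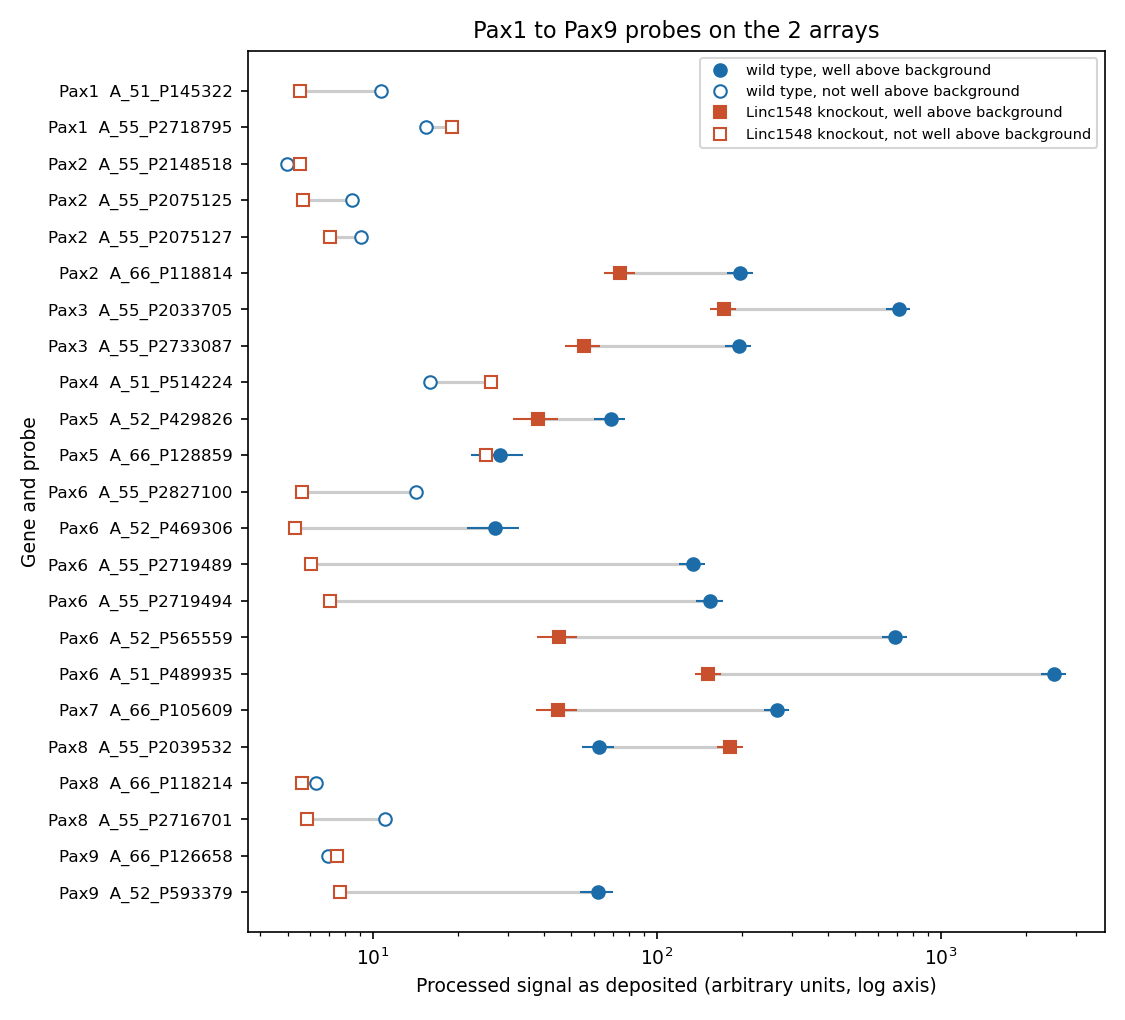
Processed signal of each of the 23 Pax probes on the WT array (circles) and the KO array (squares), in arbitrary units on a log axis; filled symbols are well above background and carry the software's spot error (1 SD), open symbols are not. The Pax6 pairs with a WT signal of 134 or more lie farthest apart, Pax8 A_55_P2039532 is the one filled pair with the KO array at the right, and probes should be compared between arrays, not with each other.

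Pax6, a regulator of forebrain, eye and neural tube progenitors, showed the lowest values of the family on the KO array relative to wild type. Probe A_51_P489935 (chr2:105537277-105537336) read 2502 ± 250.2 on the WT array and 152 ± 16.2 on the KO array. That is a log2 difference of −3.64 ± 0.21, or 12.5-fold lower, and 0.200% of measured probes lay lower still. The junction probe A_52_P565559, whose sequence is given above, read 689 ± 69.1 against 45.2 ± 7.25, a log2 difference of −3.53 ± 0.27 or 11.5-fold lower. With normexp the values were −3.16 and −2.36. Without normexp the difference between these probes, 0.11, was smaller than either spot error, so they gave the same fold within error.

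The Pax6 probes at the exon 5a junction were well above background only on the WT array. The probe joined without exon 5a, A_55_P2719489, which may read both forms, read 134 ± 14.4 there. On the KO array it read 6.04, not well above background, which makes it at least 3.81-fold lower. With normexp background correction the bound shrank to a log2 value of −0.86. The exon 5a probe, A_52_P469306, read 26.9 ± 5.59 against 5.29, too close to background on the WT array for a bound. The ratio of the splice forms therefore could not be read on either array. A further probe, A_55_P2719494, made for an Ensembl transcript, lies at chr2:105524641-105524700, inside the stretch of 988 bases that the junction probe spans in the genome and thus in sequence that the spliced form skips. It read 154 ± 16.3 on the WT array and 7.05 on the KO array, at least 4.39-fold lower, with a log2 bound of −1.01 under normexp. The sixth probe, A_55_P2827100, was not well above background on either array (14.1 and 5.61). All 5 Pax6 probes above background on the WT array were therefore lower or not well above background on the KO array.

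Pax4, the other gene of this group and a factor of endocrine pancreas, has 1 probe (chr6:28392356-28392415). It read 15.9 ± 5.70 on the WT array and 26.1 ± 6.49 on the KO array, not well above background on either, so no fold is given.

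Pax3 and Pax7, the dorsal neural tube and neural crest pair, were both lower on the KO array. Pax3 probe A_55_P2033705 (chr1:78099294-78099353) read 709 ± 71.1 on the WT array and 172 ± 18.1 on the KO array, a log2 difference of −1.64 ± 0.21 or 3.12-fold lower. The other Pax3 probe, A_55_P2733087, lies at chr1:78181199-78181258 and was made for an Ensembl transcript. It read 194 ± 20.1 against 55.2 ± 7.92, a log2 difference of −1.41 ± 0.26, so the Pax3 probes gave the same direction and sizes within their spot errors. With normexp this second probe was within 2-fold (−0.73) and Pax3 as a gene stood at −1.01. The single Pax7 probe, A_66_P105609 (chr4:139294031-139294090), read 266 ± 27.1 against 44.9 ± 7.28. Its log2 difference was −2.16 ± 0.28, or 4.47-fold lower, and −1.13 with normexp.

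Pax2, Pax5 and Pax8, the midbrain-hindbrain group, went different ways. Pax2, also a gene of kidney, optic stalk and ear, read 197 ± 20.4 on the WT array and 74.2 ± 9.36 on the KO array at probe A_66_P118814 (chr19:44911445-44911504). Its log2 difference of −1.001 ± 0.24 sits on the 2-fold limit and was −0.51 with normexp. The other 3 Pax2 probes were not well above background on either array, with signals from 4.96 to 9.10 on the WT array and 5.51 to 7.03 on the KO array. Pax5, the B cell commitment factor, read 68.8 ± 8.62 against 38.1 ± 6.86 at probe A_52_P429826 (chr4:44537936-44537995), a log2 difference of −0.45 ± 0.32. This value is little larger than its spot error and was 0.03 with normexp, so Pax5 had no settled direction. The octapeptide probe of Pax5 shown above read 28.0 ± 5.82 on the WT array, just above background, and 25.0 ± 6.24 on the KO array, where it was not.

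Pax8, a factor of thyroid, kidney and ear, was the one member higher on the KO array. Probe A_55_P2039532 (chr2:24276147-24276206) read 62.4 ± 8.13 on the WT array and 181 ± 19.0 on the KO array, where 96.5% of measured probes had a smaller difference. The log2 difference was 1.94 ± 0.24, or 3.84-fold higher, and stayed past the limit under every other scaling and background correction run, from 1.26 with normexp to 1.92 with the 75th percentile taken over detected probes. The gene value rests on this probe alone: the other Pax8 probes read 6.28 and 11.0 on the WT array and 5.62 and 5.88 on the KO array, not well above background on either. When those dim probes were kept the median for Pax8 was 0.25.

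Pax1 and Pax9, the sclerotome and pharyngeal group, were near or below the detection limit. Pax9 probe A_52_P593379 (chr12:57811169-57811228) read 61.8 ± 8.37 on the WT array and 7.63 on the KO array, not well above background. It was at least 1.76-fold lower, a bound under the 2-fold limit that passed it with spike-in centring (−1.20). Over the 2036 genes of the array with a bound only, 19.2% had one of 2-fold or more on the low side and 35.1% on the high side. The Pax9 junction probe read 6.96 and 7.49, and the Pax1 probes read 10.6 and 15.4 on the WT array and 5.52 and 19.0 on the KO array. None of these 3 was well above background on either array. Pax1 and Pax4 were thus the 2 members with no probe above background.

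**Figure D2:**
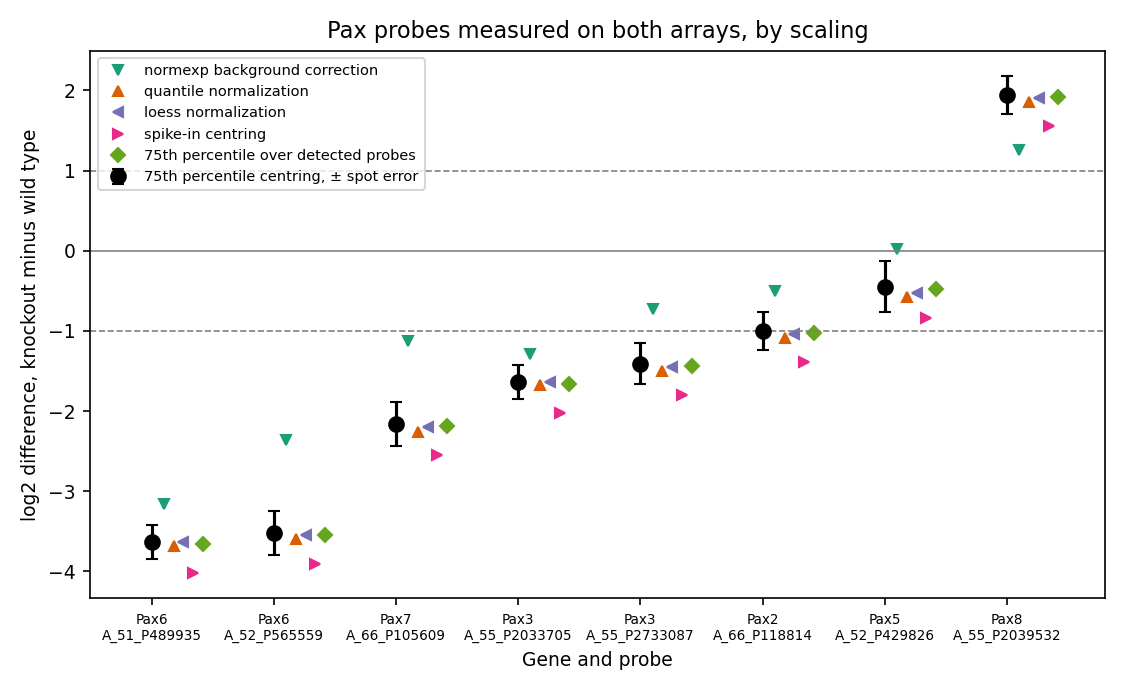
Log2 difference, knockout minus wild type, of the 8 Pax probes measured on both arrays: black points are the values in the text with the error combined from both spots (1 SD), coloured symbols the same probes under 5 other scalings or background corrections, and dashed lines the 2-fold limit. Normexp pulls the values toward 0, from −2.16 to −1.13 for Pax7 and from −0.45 to 0.03 for Pax5, while both Pax6 probes stay below −2 and Pax8 above 1.

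Pax2, Pax6, Pax8 and Pax9 have several probes on the same RefSeq transcript, and the probe farther along it was mostly the one that could be read. On each array, 3 of these 4 transcripts had only 1 of their first and last probes above background, and it was the last in 3 of 3. Over all 6592 RefSeq transcripts with several probes, the last probe was the one above background in 86.5% of 1040 such cases on the WT array and 84.1% of 1158 on the KO array. A Pax probe not above background therefore does not show that the transcript was absent. No Pax probe shared a run of 20 or more bases with a probe of another gene, on either strand (0 pairs); transcripts were not searched.

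Markers of cell types differed between the arrays beside the Pax genes. Of 8 neural progenitor markers, 6 were at least 2-fold lower on the KO array, with a median log2 difference of −2.42; their summed signal, scaled to a common 75th percentile, was 106935 on the WT array and 26252 on the KO array, and Sox1, the reporter's gene and chosen after its values were seen, differed by −2.48. Of 7 pluripotent cell markers, 6 were at least 2-fold higher (median 3.04), with summed scaled signals of 10203 and 81012. Of 7 neuron markers 6 passed the limit downward (median −1.94; summed 54130 and 50854), and of 5 epiblast markers 5 passed it upward (median 2.07; summed 33366 and 124713). Over all measured genes 8.81% passed the limit downward and 11.5% upward. The members within 2-fold were Sox2 (0.15), Zic1 (−0.32), the neuron marker Stmn2 (0.21, probes at −0.14 and 0.56) and Nanog (0.66, probes at −1.63 and 2.95). No marker of these 4 lists was below background on both arrays. Their part in the Pax values was not tested. No probe names Linc1548 (0 probes), so the labels were not checked against it.

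Genes that work with PAX proteins were then read from 11 lists. Their counts stand against 8.81% of all measured genes past 2-fold downward and 11.5% upward, and 1 gene in a short list is near those shares. Among 9 co-factors, 0 were past 2-fold in either direction, and the median was −0.23. Daxx, a PAX3-binding repressor, was at the upper end (0.28) with Paxip1, which links PAX proteins to histone methylation (0.05). The Groucho repressors Tle2 (−0.89, probes at −1.42 and −0.35) and Tle1 (−0.87) were the lowest, and both passed the limit with spike-in centring (−1.27 and −1.25). The Eya, Dach and sine oculis homeobox genes form a network that acts beside Pax genes in eye, ear, kidney and muscle. Among them, 5 of 10 passed the 2-fold limit downward and 1 upward, with a median of −0.55. The median was −1.17 with dim probes kept and −0.17 by the brightest probe. Of the lower genes, Eya1 (−1.03, probes at −2.51 and 0.46) and Eya2 (−1.50, probes at −2.81 and −0.20) rest on probes that disagree. Dach2 (−3.23) and Dach1 (−2.72), nuclear co-repressors, were the lowest, and with normexp their order turned (−1.82 and −2.61). Six4 was the highest (1.22, or 0.83 with spike-in centring).

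The list of neural and eye progenitor genes linked to Pax6 was mostly lower on the KO array. Of 10 measured, 8 passed the 2-fold limit downward and 0 upward, with a median of −2.13. Of 5 genes above background on the WT array alone, 4 had bounds past 2-fold. Among the 2036 genes with a bound only, from either array, 19.2% were past 2-fold on the low side and 35.1% on the high side. The share among genes above background on the WT array alone was not taken. Fabp7, a radial glial lipid-binding protein also counted among the neural progenitor markers above, was 9.15-fold lower. Neurog2, a proneural gene that Pax6 activates, was at least 10.8-fold lower and Six3, an eye field factor, at least 4.08-fold. The eye field genes Six6 (0.59) and Rax (0.56) were the highest and lay within 2-fold.

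Genes of the midbrain-hindbrain organiser, linked to Pax2, Pax5 and Pax8, went both ways. Of 10 measured, 4 passed the 2-fold limit upward and 1 downward, and the median was 0.53. Otx2 (2.01) is among these 4 and was also counted among the epiblast markers above. The ligands Fgf17 (12.8-fold) and Fgf8 (5.41-fold), which Pax2 and its relatives help to maintain at the boundary, were the highest. Fgf17 read 26.8 on the WT array, close to the lowest signal well above background there (24.5), and with normexp its log2 difference went from 3.68 to 2.16, under that of Fgf8 (2.31). Lmx1b, a LIM homeobox gene, was 3.89-fold lower (a log2 difference of −1.27 with dim probes kept) and Wnt1 differed by −0.50. En1 was not well above background on either array. Of 14 dorsal neural tube and neural crest genes linked to Pax3 and Pax7, 4 passed the 2-fold limit downward and 1 upward. Their median of −0.08 turned to 0.15 with normexp and 0.24 with dim probes kept. Sox9 (8.73-fold, a log2 difference of −2.23 with normexp) and Lbx1 (3.40-fold, within 2-fold with normexp) were the lowest, and Foxd3 (8.69-fold higher), which pluripotent cells also express, and Wnt3a (0.61) the highest.

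**Figure D3:**
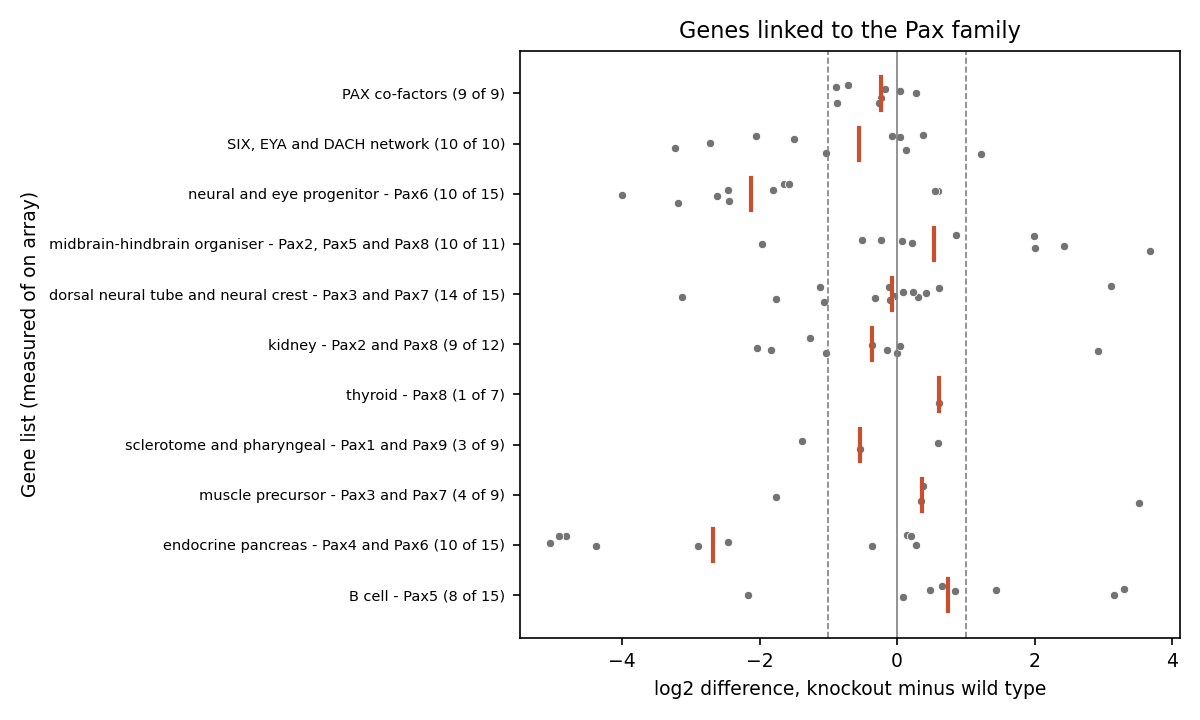
Log2 difference, knockout minus wild type, of each measured gene in the 11 lists linked to Pax genes (grey points, spread vertically at random), with the median of each list as a coloured bar and the 2-fold limit as dashed lines; the numbers give how many genes of each list on the array were measured. The lists linked to Pax6 in neural and eye progenitors and in endocrine pancreas have the lowest medians, −2.13 and −2.68.

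In the endocrine pancreas list, linked to Pax4 and Pax6, 6 of 10 measured genes passed the 2-fold limit downward and 0 upward, with a median of −2.68, or −2.09 with normexp, −0.36 when dim probes were kept and −3.64 with the stricter filter. Insm1 (33.2-fold) and Isl1 (30.2-fold, a log2 difference of −3.81 with normexp) were the lowest, and neurons also express both. Nkx2-2, a factor of pancreas and ventral neural tube, was at least 43.7-fold lower, and Pdx1 was above background on the KO array alone, at least 2.73-fold. Gcg (0.20) and Mafa (0.28), the highest, lay within 2-fold. Of 9 measured kidney genes, 4 passed the 2-fold limit downward and 1 upward, with a median of −0.37. Eya1, whose probes disagree, is among the lower ones. Gata3 (4.11-fold) and Ret (3.56-fold, a log2 difference of −1.24 with normexp) were the lowest. Gdnf was at least 2.12-fold lower, and Wt1 (7.58-fold higher) and Six2 (0.04) were the highest.

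Of 15 B cell genes linked to Pax5, 8 were measured; 3 passed the 2-fold limit upward and 1 downward, with a median of 0.74. The median was 0.09 with the stricter filter. Blnk (9.91-fold) and Cd79b (8.89-fold, a log2 difference of 1.79 with normexp) were the highest, and Spib was at least 2.43-fold higher. Ebf1 (4.48-fold lower), which neurons also express, and Vpreb1 (0.09) were the lowest. The B cell markers Cd79a, Rag1, Rag2, Igll1, Blk and Cd72 were not well above background on either array. Of 9 muscle precursor genes 4 were measured, with Tcf15 (11.5-fold) the highest and Lbx1 the lowest, Met (0.34) between them and a bound under 2-fold for Dmrt2 (1.46-fold lower). Their median of 0.36 was −0.02 under spike-in centring and −0.13 by the brightest probe. The genes Myf5, Myf6, Myod1 and Myog, which define the lineage, were not above background. Of 7 thyroid genes, only Hhex (0.61) was measured and Nkx2-1 had a bound under 2-fold (1.16-fold lower). Of 9 sclerotome and pharyngeal genes 3 were measured, among them Tbx1 (2.62-fold lower, within 2-fold at −0.90 with normexp) and Meox1 (−0.54), with a median of −0.54; Foxc2 was at least 3.11-fold lower and Uncx at least 1.71-fold.

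Within 100 kb of the stretch spanned by a Pax gene's probes, 24 probes of other transcripts were measured on both arrays; 21 lay within 2-fold, 3 passed the limit downward and 0 upward, with a median of 0.06. Over all measured probes 8.44% passed it downward and 10.5% upward, so these counts set the neighbours little apart from the array. An Elp4 probe 0.5 kb from the last Pax6 probe, on the opposite strand, read 372 on the WT array and 110 on the KO array, a log2 difference of −1.35. The other Elp4 probe, 95.1 kb away, differed by −0.29. Elp4 encodes an Elongator subunit and holds Pax6 enhancers in its introns.

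Around Pax8, Gm13415, a transcript of the opposite strand within the stretch of the Pax8 probes, was above background on the KO array alone (38.8 against 19.9), at least a log2 value of 1.07 higher. Psd4, 13.1 and 53.0 kb away, differed by 0.81 and 0.43. Around Pax9, 5 of 7 neighbouring probes were above background on the WT array and 2 on the KO array. Over all probes of the array, 5.68% were above it on the WT array alone and 2.82% on the KO array alone. Those near Pax9 above it on the WT array alone were dim there (28.7 to 65.8), and Slc25a21 gave several of the 7. Nkx2-9, a ventral neural tube homeobox gene 85.7 kb from the Pax9 probes, read 7974 against 615, a log2 difference of −3.29, and a probe the design names Tip3, 87.0 kb away, differed by −2.77. Slc25a21, on the opposite strand, was above background on the WT array alone at 2 probes, 8.0 kb (28.7 against 5.54) and 2.6 kb away (65.8 against 5.57). The nearer of them had a log2 bound of −0.91, under the 2-fold limit, and the farther had none. The Slc25a21 probes 16.9 and 63.3 kb away were not above background on either array.

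**Figure D4:**
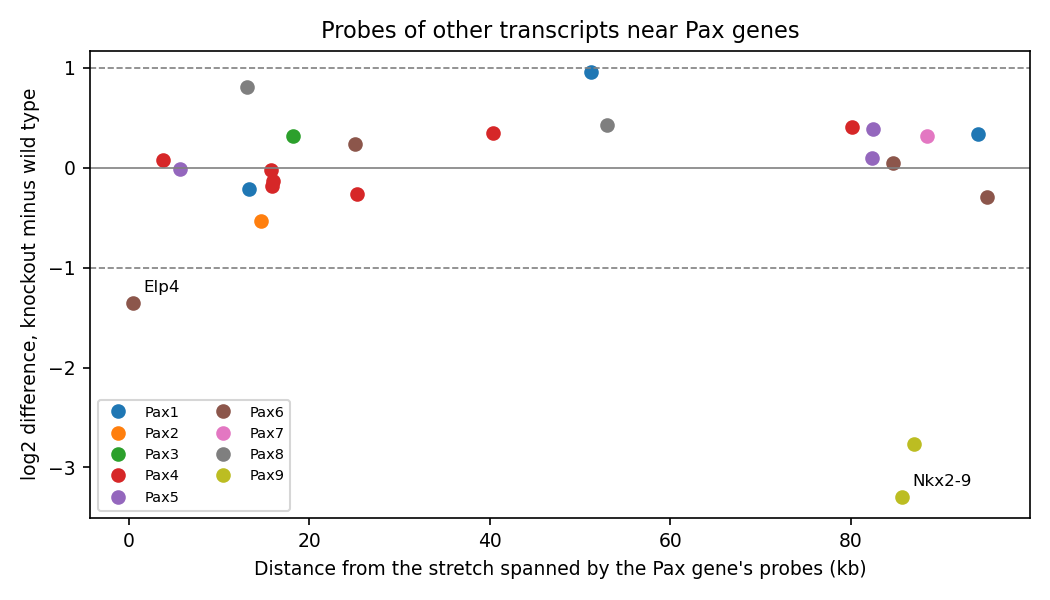
Log2 difference, knockout minus wild type, of the 24 measured probes of other transcripts within 100 kb of a Pax gene's probes, against their distance in kb, coloured by the Pax gene they lie near; dashed lines are the 2-fold limit. Elp4 beside Pax6 and Nkx2-9 with its neighbour near Pax9 lie below the limit, and the other 21 lie within it.

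With 2 arrays a gene's pattern is 1 difference, so likeness was taken as the distance between log2 differences. The genes nearest to Pax6 (−3.58) were Foxd2 (−3.58), Scrt1 (−3.61) and Galnt18 (−3.56), and 13 genes lay within 0.1 of it. Nearest to Pax7 were Klhl29, Foxd2os and Vxn (each −2.16), with 62 genes within 0.1, and nearest to Pax8 were Abcb1b, Arhgap30 and Rab27a (each 1.94), with 158. Within 0.1 of Pax3 lay 199 genes, led by Gpr161 and Rnf223 (each −1.53); 438 lay as near to Pax2 and 1161 to Pax5, so for these genes likeness picks out little.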

How the data were processed

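One-colour arrays (1 wild type, 1 knockout) were analysed, grouped by the genotype in the labels. Per the file headers, Agilent Feature Extraction 10.7.1.1 made the deposited intensity values: spatial and multiplicative detrending and surrogates for signals too low to measure were switched on within each array, and arrays were not normalized to each other. Flags for detection and outliers are other values, deposited as 0 or 1 per the file headers. RNA was amplified and labelled with Cy3, per the labels' protocols.

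Outlier spots were left out (173 and 155 of 59305), spots of a probe were averaged, and the 75th percentile of each array was subtracted from its log2 signals. A probe was measured where at least a share of 0.5 of its spots was well above background on both arrays and it was not saturated; the stricter filter also asks for a signal at or above the 25th percentile of measured probes on both. For a probe above background on 1 array, the bound sets its signal against the higher of its own and the lowest well-above-background signal on the other array. Normexp (offset 50), quantile and loess alternatives used limma 3.58.1 in R 4.3.3; the rest used Python 3.11.15. Of the 23 Pax probes, 16 were matched to RefSeq names (GRCm38.p6, names only) by accession and 7 by symbol. The steps were tested on simulated data. There the fold calls were tried only on probes brighter than most Pax probes, with less noise than the Pax spot errors, so dim calls were not tested. From each list the text names the 2 highest, 2 lowest and 2 largest bounds. Some genes this rule picks are not reported here. Where labels name no separate cultures, the error covers spots only: probes in several spots had a pooled SD of 0.065 (wild type) and 0.070 (knockout), and few of them were as dim as most Pax probes. The members and lists were chosen with earlier results of these data known.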

Additional observations from a re-analysis of the deposited data

How the results depend on the processing

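No paired analysis was possible because each group has 1 array. Leaving out a replicate and the slide as a block were not run for the same reason. Both arrays were also expected to share 1 slide, but this was not shown. Of the scalings, spike-in centring shifts every log2 difference by −0.39. The counts of Pax probes and genes past 2-fold moved by over 1.5 times only with the filter on dim probes: without it 10 probes were lower and 2 higher, and with a stricter one 2 probes (2 genes) were lower and 0 higher, since only 2 of the 8 measured probes pass it. With normexp the lower Pax probes went from 6 to 4 of 8 and the lower Pax genes from 4 to 3 of 6. Over all linked genes, 29 of 84 measured were at least 2-fold lower and 11 higher, or 22 and 10 with normexp. The stricter filter gave 18 lower and 6 higher of 52, and no filter gave 17 higher of 123. For neighbouring probes, no filter gave 7 lower and 3 higher of 48, and the stricter filter 1 lower of 15. The shares over all probes and genes hold only for the main centring and filter, so counts under other settings cannot be set against them. Pax2 came under the 2-fold limit with normexp (−0.51) and without the filter (−0.07). Dim signal leaves Pax1 and Pax4 without a value, and no replicate shows the spread between cultures.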

Other observations

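The antisense transcript Pax6os1 and the long non-coding RNA Paupar, both transcribed near Pax6 on the opposite strand, were read only near background. Of 3 Pax6os1 probes, 1 was above background on both arrays, at 44.4 ± 6.69 on the WT array and 34.6 ± 6.57 on the KO array, a log2 difference of 0.04 that ran from −0.34 to 0.24 over the settings run. The Paupar probe, 25.1 kb from the Pax6 probes, read 43.5 against 38.7, a log2 difference of 0.23. The values do not show that these RNAs were equal.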
